A study of Mus musculus with 12 samples.

Results

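The Fanconi anemia (FA) genes of the mouse forebrain were examined in 4 groups of mice, with the question of whether Fancm moved together with its pathway. The 10 genes were Fanca, Fancb, Fancc, Fancd2, Fance, Fancf, Fancg, Fanci, Fancl and Fancm, taken by symbol from a table of 19268 genes, and all 10 were present. Fancm was chosen by its normalized counts in P25-KO against P25-WT, so its values at P25, and every comparison that uses the P25 libraries, are given for Fancm as a description without a test. The other 9 genes were taken as its pathway.

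RNA was sequenced from the forebrain, without the olfactory bulb, of male C57BL/6J mice. The groups were P25-WT and P25-KO, wild-type and knock-out juveniles at postnatal day 25, and P60-WT and P60-KO, wild-type and knock-out adults at postnatal day 60, with 3 mice in each. The knock-outs lacked part of the exons of both copies of Shank3, whose product is a scaffold of excitatory synapses, and all groups carried the same strain background with no further allele or treatment. Values are normalized counts, estimated read counts divided by the authors' normalization factors. The labels name no litter or batch, and p-values cover the spread between these mice only.

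FA proteins repair DNA interstrand crosslinks. FANCM is a DNA translocase that binds stalled replication forks and anchors the FA core complex (FANCA, FANCB, FANCC, FANCE, FANCF, FANCG and the ubiquitin ligase FANCL), which ubiquitinates the FANCI-FANCD2 dimer so that nucleases and recombination proteins can act at the lesion. Neurons, which make up much of the forebrain, no longer replicate their DNA, and loss of FA genes is best known for failure of the dividing bone marrow.

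The promoters of the FA genes are shown because several are known as targets of E2F, the transcription factor family of S-phase genes, which bears on whether the genes share control sequence. RefSeq promoters (GRCm38.p6, 250 bases before to 50 bases after the listed start) were matched by symbol for 9 of the 10 genes, all but Fancd2. The E2F core TTCCCGC, or GCGGGAA on the other strand, was found in 4 of the 9, against 4.60% of 32851 promoters of the same length. The 4 sequences are printed 5′ to 3′ on the strand of the gene, with the E2F core in capitals.
Fancm, chr12:65075353-65075652, plus strand: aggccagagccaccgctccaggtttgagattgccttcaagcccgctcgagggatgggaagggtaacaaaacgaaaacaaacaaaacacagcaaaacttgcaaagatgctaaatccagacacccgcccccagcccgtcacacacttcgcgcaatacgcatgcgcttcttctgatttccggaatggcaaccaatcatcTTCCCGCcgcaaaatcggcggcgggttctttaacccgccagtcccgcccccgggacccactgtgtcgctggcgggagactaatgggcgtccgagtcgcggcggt
Fancb, chrX:164980342-164980641, plus strand: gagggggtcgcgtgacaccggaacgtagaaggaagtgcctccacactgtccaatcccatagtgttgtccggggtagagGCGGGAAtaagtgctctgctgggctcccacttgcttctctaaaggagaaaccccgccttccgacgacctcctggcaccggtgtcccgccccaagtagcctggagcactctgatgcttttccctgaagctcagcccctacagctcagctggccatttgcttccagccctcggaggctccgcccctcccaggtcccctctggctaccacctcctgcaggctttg
Fancg, chr4:43010252-43010551, minus strand: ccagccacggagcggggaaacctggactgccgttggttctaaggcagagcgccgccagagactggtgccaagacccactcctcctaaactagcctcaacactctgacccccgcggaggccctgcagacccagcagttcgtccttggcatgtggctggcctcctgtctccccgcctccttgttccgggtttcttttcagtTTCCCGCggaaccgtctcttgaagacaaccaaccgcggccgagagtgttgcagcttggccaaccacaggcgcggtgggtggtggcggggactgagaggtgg
Fanci, chr7:79392088-79392387, plus strand: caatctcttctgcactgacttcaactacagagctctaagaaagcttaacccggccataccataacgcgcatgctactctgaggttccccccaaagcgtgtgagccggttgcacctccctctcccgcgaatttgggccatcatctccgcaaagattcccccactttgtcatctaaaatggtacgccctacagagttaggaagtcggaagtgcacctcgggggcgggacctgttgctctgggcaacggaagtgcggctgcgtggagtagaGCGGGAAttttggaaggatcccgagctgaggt

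The core began at -54 in Fancm, -172 in Fancb, -51 in Fancg and +19 in Fanci, counted from the listed start. This start lay at the annotated gene start for Fancm and Fancb, and 205 and 409 bases from it for Fancg and Fanci. Among the promoters without the core, it lay 949 bases away for Fancl and 65533 for Fancc. The CCAAT box (CCAAT or ATTGG) was present in 6 of the 9 promoters and in 37.4% of all promoters, and the GC box (GGGCGG or CCGCCC), whose letters can overlap the E2F core, in 6 of the 9 and in 35.7% of all. The cell cycle element CHR (TTTGAA or TTCAAA) was in 0 of the 9 and in 17.9% of all. A match of letters is a description and no evidence of a bound site. The motifs were picked after the Fancm promoter had been seen, so its own matches were known in advance. All promoters were taken without matching for GC content, which ran from 47% (Fancl) to 63.3% (Fancg) in the 9.

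Library totals were between 30568259 and 32348554 normalized counts, and the read depth behind them is unknown. Shank3 was at 48.0% of the wild-type mean in P25-KO and at 50.2% in P60-KO, with no overlap of groups at either age (adjusted p = 0.0134 and 0.0022, limma). The P25 call was lost without P25-KO replicate 1 (adjusted p = 0.246, limma) or 2 (0.201) and with the replicate number as a block (0.261). The calls at both ages were lost without the intensity trend (0.412 and 0.185). The log2 difference without 1 library stayed between -1.14 and -0.94. The value covers the whole gene and not the deleted exons. Neurod6, a marker of excitatory neurons of the forebrain, was between 1234 and 1981 in every library. Gabra6, a marker of cerebellar granule cells, was 221 in P60-WT replicate 2 and 68.5 in P60-KO replicate 1, and at most 4.40 in the other libraries. En2, another hindbrain marker, was 157 and 91.6 in these replicates and 44.0 to 80.5 in the others. Barhl1 (72.3 and 52.8 against 26.2 to 71.1) and Hoxb5 (8.75 and 11.1 against 0 to 13.3) did not set P60-KO replicate 1 apart. Several results on P60 are also given without P60-WT replicate 2 and P60-KO replicate 1, called the Gabra6-positive replicates.

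Fancm (ENSMUSG00000055884, GRCm38 chr12:65075603-65132058, plus strand) was higher in every P25-KO library than in every P25-WT library. It was 507, 486 and 522 normalized counts in P25-KO replicates 1 to 3. In P25-WT it was 342, 298 and 332. The means were 505 ± 17.6 (SD, n = 3) and 324 ± 22.9 (SD, n = 3), a ratio of 1.56 and a log2 difference of 0.64 ± 0.10 (SE). These are the values for which the gene was chosen, and nothing is read from them. Across all genes, 4.76% had P25 groups that did not overlap (2.26% with KO higher). The paper, which used DESeq2, counts Fancm among the genes strongly raised in the knock-outs at P25, from these same libraries. The summed level of every cell type marker list overlapped between the genotypes at P25. All 6 oligodendrocyte markers were on the negative side (median log2 difference -0.13) and all 5 blood markers on the positive side (0.19). None of these markers passed the test, and their part in the Fancm values was not tested. In bulk RNA, fewer cells of a type and less RNA per cell cannot be told apart.

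In the adults, whose libraries played no part in the choice, Fancm did not separate the genotypes. It was 345, 482 and 672 normalized counts in P60-KO replicates 1 to 3 and 582, 431 and 316 in P60-WT. The highest library was a knock-out and the next a wild-type, and the lowest was a wild-type and the next a knock-out. The means were 500 ± 164 and 443 ± 134 (SD, n = 3 each). The log2 difference was 0.17 ± 0.26 (SE), which did not pass the test (adjusted p = 0.9995, limma; two-sided exact permutation p = 0.7, where 0.1 is the smallest possible). The summed level of the 5 blood markers was 6505 to 7305 in P60-KO and 5894 to 6410 in P60-WT, without overlap. All 5 blood and 6 oligodendrocyte markers had positive differences and all 5 endothelium and the 3 tested hindbrain markers negative ones, none of which passed. The part of these markers in this and the following P60 genotype values was not tested. Leaving out 1 library moved the Fancm difference between -0.07 and 0.41, and it turned negative without P60-KO replicate 3 (-0.07) and also without P60-WT replicate 3 (-0.06). Without the Gabra6-positive replicates it was 0.41, as it was without P60-KO replicate 1 alone, the lowest of its group.

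In the adults, Fancm spread widely within each genotype. The mean of P60-KO was close to that of P25-KO, whereas P60-WT lay above P25-WT on average. The log2 difference between P60 and P25 was 0.41 ± 0.20 (SE) in WT and -0.07 ± 0.19 in KO, and the genotype by age interaction was -0.48 ± 0.31, all without a test. Leaving out 1 library moved these values from 0.19 to 0.63 in WT, from -0.31 to 0.17 in KO and from -0.72 to -0.24 for the interaction. Without the Gabra6-positive replicates the KO value turned to 0.17 and the interaction was -0.23, so no contrast between the genotypes is read from them. The SD of log2 values within a genotype was 0.46 at P60. Among 2758 genes with a P60 mean of 300 to 700 normalized counts, the median of this SD was 0.12, and 23 genes (0.834%) had an SD at least as large as that of Fancm. This look at the spread was chosen after the values had been seen.

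The other 9 genes had overlapping genotypes at P25. Of the 9, 0 passed the test, against 0.00571% of all genes, and 0 had groups that did not overlap, against 4.76%, so that counts of 0 are no result about the 9. Of the log2 differences 4 were positive and 5 negative, with a median of -0.03 against -0.01 over all genes tested. At P60, 0 of the 10 passed (0.00568% of 17610 genes did), and the median of the 9 was 0.04 against 0.00. At an unadjusted p under 0.05 the numbers were 0 of 9 at both ages, where 1.36% and 2.5% of all genes reached it.

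The subunits of the core complex are given first. Fance, the subunit that contacts FANCD2, was 400, 396 and 379 normalized counts in P25-KO and 405, 416 and 379 in P25-WT. In the adults it was 404, 404 and 362 in P60-KO and 321, 348 and 354 in P60-WT. P60-KO thus lay above P60-WT in every library, by a log2 difference of 0.19 ± 0.09 (SE; adjusted p = 0.9995, limma; exact permutation p = 0.1). Groups that did not overlap with KO higher were found for 4.16% of all genes at P60. At P25 the difference was -0.03 ± 0.10.

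Fancb, an X-linked gene whose product forms a module with FANCL, was 58.4, 58.6 and 54.9 normalized counts in P25-KO and 57.5, 67.2 and 47.9 in P25-WT. In the adults it was 71.6, 71.6 and 64.6 in P60-KO and 74.4, 78.4 and 83.1 in P60-WT. The adult knock-outs were all lower, by a log2 difference of -0.18 ± 0.16 (SE), which did not pass (adjusted p = 0.9995, limma). KO lower without overlap was seen for 3.63% of all genes.

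Fancl, the ubiquitin ligase subunit, was 137, 162 and 98.0 normalized counts in P25-KO and 131, 159 and 159 in P25-WT. Its P60 values were 137, 185 and 119 in KO and 148, 132 and 156 in WT. The genotypes overlapped at both ages, with log2 differences of -0.20 ± 0.20 and -0.01 ± 0.17 (SE).

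Fanca, a core subunit, was the most variable of the genes. It was 24.4, 77.2 and 74.3 normalized counts in P25-KO and 79.6, 33.3 and 53.0 in P25-WT, and 33.9, 45.9 and 53.0 in P60-KO and 90.1, 26.7 and 88.7 in P60-WT. Low and high libraries occurred in both genotypes, and the SD of log2 values within a genotype was 0.78 at P25 and 0.73 at P60. Its log2 difference was 0.00 ± 0.46 at P25 and -0.45 ± 0.43 (SE) at P60, where leaving out 1 library moved it between -1.02 and -0.16. Of the 31-base words in its transcripts, 10.9% also occur in other genes, mostly in the overlapping Zfp276.

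The remaining core subunits Fancc, Fancg and Fancf had overlapping genotypes at both ages. Fancc was between 219 and 283 normalized counts over all 12 libraries, with log2 differences of -0.09 ± 0.11 at P25 and 0.09 ± 0.12 (SE) at P60. Fancg was between 281 and 384, with -0.08 ± 0.14 and 0.06 ± 0.09. Fancf was between 63.4 and 100.1, with -0.23 ± 0.21 and -0.14 ± 0.17.

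The substrates of the core complex overlapped between genotypes as well. Fancd2 was 148, 137 and 124 normalized counts in P25-KO and 87.1, 113 and 130 in P25-WT, so that 2 of the P25-KO libraries lay above all P25-WT libraries. Its log2 difference at P25, 0.32 ± 0.18 (SE), was the largest of the 9 and did not pass (adjusted p = 1, limma). It ran from 0.17 to 0.45 when 1 library was left out. In the adults Fancd2 was 136, 111 and 87.0 in KO and 92.8, 93.7 and 140 in WT, a difference of 0.04 ± 0.22. Fanci, the partner of Fancd2, was between 18.9 and 36.2 in all libraries, with differences of 0.00 ± 0.25 and 0.07 ± 0.30.

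**Figure D1:**
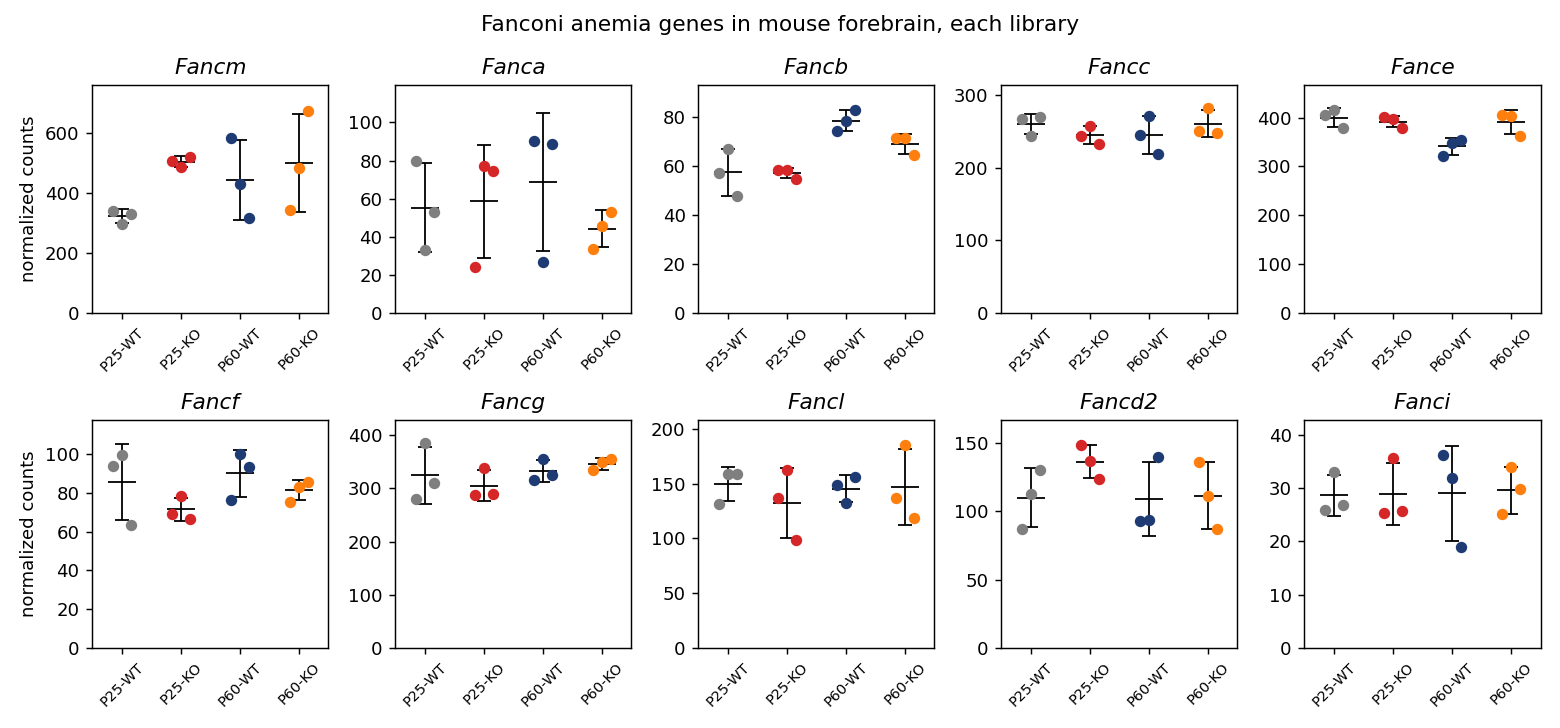
Normalized counts (y axis, from 0) of each FA gene in each library by group; points are libraries, from replicate 1 on the left to replicate 3 on the right, and bars are mean ± SD (n = 3). Fancm separates the genotypes at P25 (298 to 342 against 486 to 522) and overlaps at P60 (316 to 582 against 345 to 672).

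**Figure D2:**
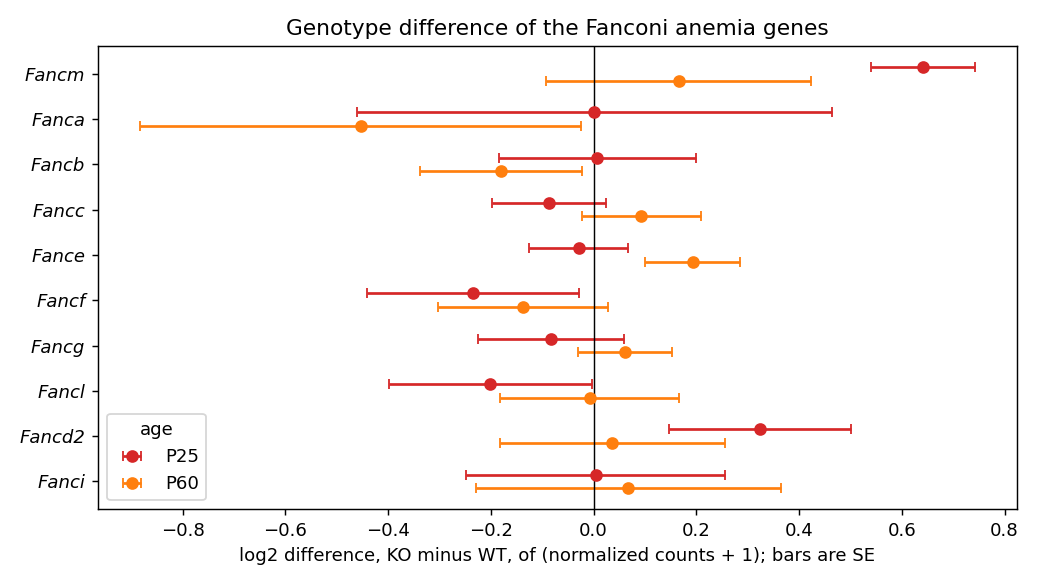
Log2 difference KO minus WT of normalized counts + 1 (x axis) for the FA genes at P25 (red) and P60 (orange), with SE bars. Fancm at P25, for which the gene was chosen, lies at 0.64, and the other values lie between -0.45 and 0.32.

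Divided by the length of the longest coding transcript, Fance was the highest of the genes and Fanci the lowest. The mean of 12 libraries was 188 normalized counts per kb for Fance, 118 for Fancg, 79.9 for Fancc, 56.9 for Fancm, 52.7 for Fancl, 48.5 for Fancf, 22.0 for Fancb, 21.2 for Fancd2, 12.6 for Fanca and 6.25 for Fanci. Over the libraries, Fance lay above Fancg and Fancg above Fancc without overlap. Each neighbouring pair in the order Fancc, Fancm, Fancl, Fancf overlapped, and so did each in the order Fancb, Fancd2, Fanca, Fanci, whereas Fancf and Fancb were apart. Fancm ranked 4 in P25-KO, P60-KO and P60-WT and 6 in P25-WT. With the union of all exons as the length, 6 of the 10 kept their rank, Fance overlapped Fancg, and Fancc fell to rank 6 with 30.2 normalized counts per kb.

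The proteins that act directly with FANCM were examined next. Cenps, which encodes the histone-fold protein MHF1 that binds DNA with FANCM, was 56.1, 63.7 and 56.1 normalized counts in P25-KO and 49.1, 41.9 and 41.4 in P25-WT. In the adults it was 51.0, 54.2 and 47.3 in P60-KO and 40.5, 40.4 and 36.4 in P60-WT. The knock-outs were higher without overlap at both ages, which was so for 0.122% of 17199 genes. The ratios were 1.33 and 1.30, and the log2 differences of 0.40 ± 0.19 and 0.37 ± 0.19 (SE) did not pass the test (adjusted p = 1 and 0.9995, limma; exact permutation p = 0.1 each). Cenps was singled out from the 6 core complex partners after its values had been seen.

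Its binding partner Cenpx (MHF2) did not share this pattern. It was 203, 165 and 232 normalized counts in P25-KO, 191, 288 and 164 in P25-WT, 167, 144 and 134 in P60-KO and 132, 141 and 108 in P60-WT, with overlapping genotypes at both ages. Faap24, which forms a heterodimer with FANCM, was between 90.5 and 150 and also overlapped, with log2 differences of 0.05 ± 0.15 at P25 and -0.06 ± 0.18 (SE) at P60. The same held for Faap100 and Faap20 of the core complex and for Ube2t, the ubiquitin-conjugating enzyme. None of the 6 partners passed the test in either genotype comparison. Their median log2 difference at P25 was -0.02 (3 of 6 positive), against -0.01 over all genes tested. At P60 it was 0.16 (5 of 6 positive), against 0.00. The positive ones at P60 included Cenpx (0.23 ± 0.15, SE) and Ube2t (0.23 ± 0.28).

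FANCM also recruits the BLM dissolvasome, a helicase and topoisomerase complex that takes apart recombination intermediates. Blm was 99.2, 102 and 103.2 normalized counts in P60-KO and 103.5, 157 and 143 in P60-WT. The groups did not overlap, but the closest libraries were at 103.2 and 103.5. Blm was lower in KO by a log2 difference of -0.38 ± 0.17 (SE), which ran from -0.56 to -0.26 when 1 library was left out. At P25 it was 107, 119 and 132 in KO and 83.3, 115 and 154 in WT, with overlap and a difference of 0.06 ± 0.22. Top3a was higher in P25-KO without overlap (0.18 ± 0.13) and overlapped at P60, and Rmi1 was lower in P60-KO without overlap (-0.12 ± 0.07). KO higher without overlap was seen for 2.26% of all genes at P25 and KO lower for 3.63% at P60. None of the complex passed the test, and Rmi2 was below the minimum mean of 10. Over the 3 tested genes the median log2 difference was 0.06 at P25 (3 positive) and -0.12 at P60 (1 positive). Of the Rmi1 words 29.5% occur in other genes.

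None of the further pathway lists had a gene that passed in a genotype comparison, where 0.00571% of all genes passed at P25 and 0.00568% at P60, so that a count of 0 is no result about a list. These were 2 genes of FA deubiquitination, 11 tested genes of crosslink nucleases and lesion bypass, 7 of recombination, 10 of ATR signalling and 21 of cell proliferation at P25 (18 at P60). Their median log2 differences at P25 were 0.06, 0.00, -0.05, -0.03 and 0.06 in that order. At P60 they were -0.09, 0.01, 0.24, 0.06 and 0.01.

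Few of the FA genes differed between ages. Over both genotypes, 37.6% of 17594 genes differed between P60 and P25. Of the 9 FA genes other than Fancm, 1 did, and their median log2 difference was 0.01 against 0.00 over all genes tested. Fancb, between 47.9 and 67.2 normalized counts at P25 and between 64.6 and 83.1 at P60, rose by a log2 difference of 0.36 ± 0.11 (SE; adjusted p = 0.0211, limma; exact permutation p = 0.0043; 18.3% of all genes were called higher). This call was lost without P60-WT replicate 3 (0.33, adjusted p = 0.0516) and without the Gabra6-positive replicates (0.35, adjusted p = 0.0675).

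Within a genotype, 0 of the 9 passed, where 8.65% of all genes did in WT and 20.7% in KO. When 1 library was left out, the number of all genes called ran from 122 to 2403 in WT and from 2093 to 3230 in KO. Fancb was higher at P60 without overlap in both (17.6% of all genes in WT and 18.9% in KO were), with log2 differences of 0.46 ± 0.19 in WT and 0.27 ± 0.17 (SE) in KO. Fance was lower at P60 in WT without overlap (-0.23 ± 0.11, adjusted p = 0.188, limma; 18.4% of all genes did so), and in KO the difference was -0.01 ± 0.09. The interaction for Fance was 0.22 ± 0.13 and did not pass, as for the rest of the 9. Among 17594 genes 0 passed the interaction test (limma), and 288 (1.64%) had an unadjusted p under 0.05.

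Several genes of cell division fell with age. Of the 21 proliferation genes, 10 fell and 1 (Mcm7, a replicative helicase subunit, 0.25) rose, where 19.3% of all genes were called lower, with a median log2 difference of -0.54. Aurkb, a mitotic kinase, fell by 1.73 on the log2 scale (SE 0.31, adjusted p = 0.00065, limma), from between 18.2 and 28.4 to between 2.95 and 17.8 normalized counts. Rrm2, a subunit of ribonucleotide reductase, fell by 0.73 (SE 0.13, adjusted p = 0.00058), from 71.8 to 103 down to 41.8 to 57.1. Aurkb and Rrm2 were named as the 2 of lowest adjusted p in their list. This choice favours ages that stand apart, so nothing more is read from their ranges.

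Of the core complex partners, 2 of 6 fell, where 19.3% of all genes did, and all 6 had negative differences, with a median of -0.20. Cenpx fell by 0.57 on the log2 scale (SE 0.14, adjusted p = 0.00571, limma). Faap100 fell by 0.27 (SE 0.09, adjusted p = 0.0208), a call that was lost without P25-KO replicate 3 (adjusted p = 0.0518) or without the Gabra6-positive replicates (adjusted p = 0.0585). Ube2t, Faap20, Faap24 and Cenps had differences of -0.15 to -0.22 that did not pass.

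The enzymes that remove ubiquitin from FANCD2 and FANCI went the other way. Usp1, the protease, rose by 0.28 ± 0.06 (SE) on the log2 scale (adjusted p = 0.0038, limma), and its cofactor Wdr48 rose by 0.38 ± 0.05 (adjusted p = 9.5e-05) from between 1810 and 2168 to between 2421 and 2792 normalized counts. Of 11 nuclease and bypass genes, 3 rose and 0 fell, where 18.3% of all genes rose and 19.3% fell, among them the bypass polymerase Rev1 (0.36 ± 0.07) and the nuclease Fan1 (0.30 ± 0.08). Of 7 recombination genes, Xrcc2 rose (0.29 ± 0.09) and Brca1 fell (-0.42 ± 0.14). Of 10 ATR signalling genes, 2 rose, a share near that of all genes (18.3%), the kinase Atr (0.60 ± 0.11) and the clamp loader subunit Rad17 (0.16 ± 0.06). In the BLM dissolvasome, Rmi1 rose (0.20 ± 0.05), and Blm (0.00 ± 0.15) and Top3a (0.09 ± 0.09) did not pass.

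**Figure D3:**
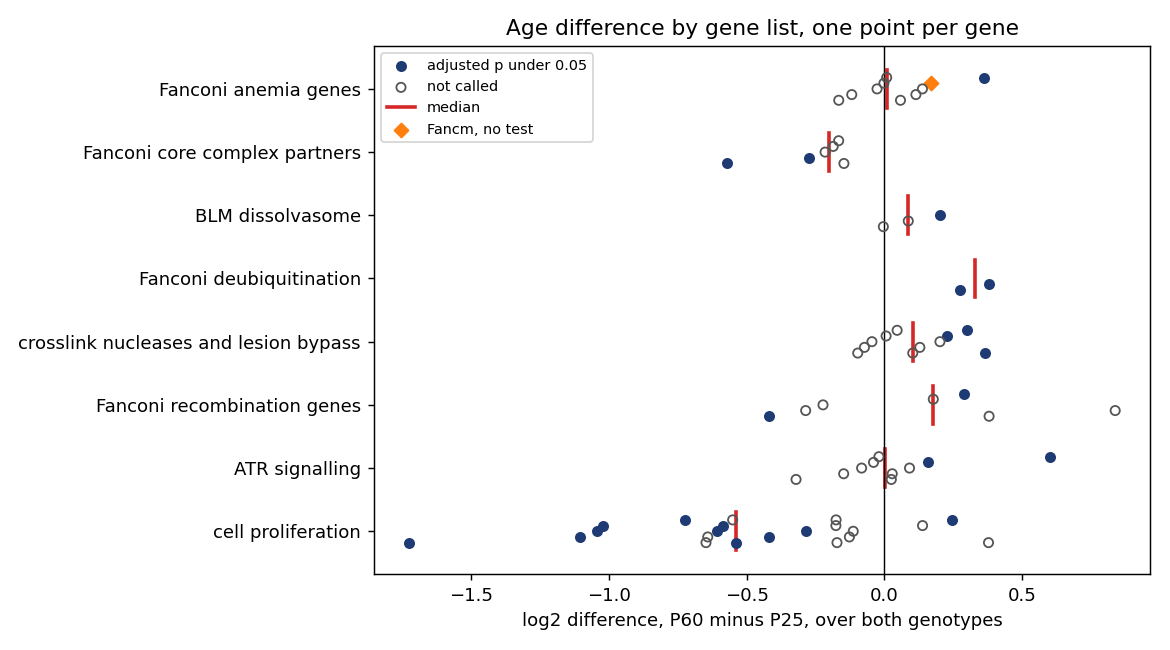
Log2 difference P60 minus P25 over both genotypes (x axis) for each tested gene of the FA genes and 7 pathway lists (rows); filled points passed at adjusted p under 0.05, open points did not, red lines are medians, and the diamond is Fancm, left out of test and median. The FA genes centre near 0 (median 0.01) and the proliferation genes lie lower (median -0.54).

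Markers of cell types moved with age too. The summed level of 6 oligodendrocyte markers was 327748 to 428873 at P25 and 155189 to 177765 at P60, and all 6 passed as lower. So did 5 of 5 oligodendrocyte precursor, 4 of 5 astrocyte, 5 of 5 blood and 1 of 5 microglia markers, where 19.3% of all genes did. Of 7 forebrain neuron markers, 3 passed as higher and 2 as lower. The neuron sum was 61436.3 to 64525.2 at P25 and 55887.4 to 58040.5 at P60. Among 5 endothelium markers 1 passed as higher, and 0 of 3 tested hindbrain markers passed, where 18.3% of all genes were called higher. The blood sum was 20503 to 42983 at P25 and 5894 to 7305 at P60. The part of these shifts in the age differences of the FA genes and their partners was not tested.

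The coding gene before Fancm on chromosome 12 overlapped between the genotypes. Fkbp3, a prolyl isomerase gene that starts 1596 bases away on the opposite strand, was 2862, 2784 and 2603 normalized counts in P25-KO and 2694, 3189 and 2610 in P25-WT, with overlap and a log2 difference of -0.04 ± 0.09 (SE). At P60 it was 0.03 ± 0.05. Of the 31-base words of Fancm transcripts, 6.53% also occur in other genes, 5.21% in Gm47870, which starts 712 bases from the start of Fancm. Gm47870 was 4.42, 10.2 and 12.7 normalized counts in P25-KO and 14.3, 7.66 and 10.8 in P25-WT. At P60 it was 7.39, 6.61 and 3.47 in KO and 12.6, 12.5 and 10.8 in WT. KO was thus lower without overlap at P60 (3.63% of all genes tested were), where Gm47870 was below the minimum mean of 10 and not tested. Genes that start within 1 kb of another FA gene on the opposite strand (Mospd2 beside Fancb, Emc3 beside Fancd2, Gas2 overlapping Fancf) had log2 differences at P60 of 0.04, -0.01 and 0.05. Whether counting used strand is not stated, so values of overlapping genes are uncertain. The share of words found in other genes was 17.2% for Fancc (mostly Gm16133), 14.2% for Fanci (Polg), 13.4% for Fancf (Gas2) and 12.3% for Fancl (Vrk2). Polg was 2169 to 2555 normalized counts in P60-KO and 2579 to 2764 in P60-WT, without overlap, and Fanci overlapped.

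Likeness to Fancm over the 12 libraries rests in part on the P25 gap that chose the gene, and says nothing of whether Fancm moved with its pathway. The highest Pearson correlations of log2(normalized counts + 1) among 17593 genes, passing over pseudogenes and identifier-like symbols (ranks 1, 3, 4, 6 and 8), were those of Kcnk5, a potassium channel (r = 0.85), Tmem82 (0.83), Trmu, a tRNA-modifying enzyme of mitochondria (0.81), Gpr35, a G protein-coupled receptor (0.81), and Atg13, an autophagy initiator (0.78). Kcnk5, for example, was 39.2, 32.1 and 41.3 in P25-KO, 23.0, 21.5 and 30.8 in P25-WT, 25.6, 28.1 and 58.0 in P60-KO and 33.7, 31.4 and 26.9 in P60-WT. Among the 9 FA genes, r ran from -0.40 (Fance) to 0.43 (Fanci), and 761 genes (4.33%) were at or above Fanci. For deviations from the group means, which leave out the gap between P25 groups, r ran from -0.80 (Fancd2) over -0.78 (Fance) and -0.50 (Fancb) to 0.55 (Fanci). These deviations of Fancm came mostly from the adults, where its spread was wide. The share of all genes with an r this far from 0 was not computed, so nothing is read from these r values. The libraries are the same for every gene and hold only 4 groups, so these values are a description.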

How the data were processed

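Per the labels and the paper's methods, transcript abundances were estimated with Salmon 1.1.0 under a GC bias correction, read in with tximport and normalized in R 3.6.2 with DESeq2 1.26.0 (versions as in the submitters' processing notes, where the paper names others for R and DESeq2; build GRCm38; annotation release not given in the sources used here). The values the authors deposited are signal on a count scale, not whole reads, so no count model was fitted, the depth is unknown, no counting interval was computed, and the number of libraries limits the precision. A fold change is on the log2(value + 1) scale, which understates low genes.

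Groups and replicate numbers came from the sample titles. Genes with a mean of at least 10 were fitted with limma 3.58.1 in R 4.3.3 (lmFit, eBayes with an intensity trend), comparing KO with WT within each age, P60 with P25 within and over genotypes, and their interaction. P-values were adjusted by Benjamini-Hochberg over all genes tested, with a threshold of 0.05. The procedure was tested on simulated data. Positions came from GENCODE M21, which holds 19252 of the 19268 identifiers.

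The genes and lists were chosen with earlier results of these data known. Named were the FA genes, Shank3, neighbours of FA genes, the core complex partners and the BLM dissolvasome, for the other lists any gene called between genotypes and the 2 of lowest adjusted p with age, and the 5 genes most correlated with Fancm, passing over pseudogenes and identifier-like symbols. A neighbour that the rule names is not reported here. Mcm7 and the markers Neurod6 and Gabra6 are named in addition, after their values were seen. Alternatives changed the pseudocount (0.5, 5), the minimum mean (none, 50), the scaling, the intensity trend, library weights and the libraries in the fit, or added the replicate number as a block.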

Additional observations from a re-analysis of the deposited data

How the results depend on the processing

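Of 1050 alternative values, 741 for single genes kept their direction and side of the threshold or, for untested values of Fancm, moved by less than the spread between replicates. A further 214 counts stayed close to those reported, and no alternative gave a call among the 9 FA genes other than Fancm in a genotype comparison. Fancm at P25 stayed between 0.56 and 0.68. Library weights did not fully converge, and the setting without the Gabra6-positive replicates was chosen after seeing the data, as were the counts of partners and proliferation genes. The cause of the changes below was not tested.

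Without the intensity trend, 0 genes passed at P25, 0 at P60, 192 with age in WT (1521 in the fit as reported) and 1725 in KO (3641). With library weights, 57 passed at P25 and 8250 with age in WT, 3 of them FA genes, and the P25 differences of Fanca, Fancg and Fancl turned to -0.75, 0.10 and 0.0051. Without the Gabra6-positive replicates, 3 genes passed at P60, 375 with age in WT, 2323 in KO, 0 FA genes and 1 core complex partner with age over both genotypes, and Fancd2 at P60 turned to -0.21 and Fanca with age to 0.35. Scaling to the same total turned the age differences of Fanca and Fancc to 0.015 and 0.041, and a pseudocount of 0.5 turned Fanca at P25 to -0.00014. Union exon lengths kept 6 of 10 ranks.

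Same-numbered libraries correlated between -0.07 and 0.17, so the numbers were not taken as pairs. With the replicate number as a block, 0 genes passed at P25 (Shank3, adjusted p = 0.261 at an unmoved log2 difference of -1.06), and no FA gene gained or lost a call.

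Leaving out 1 library gave 0 to 8 genes at P25 (8 without P25-WT replicate 1), 1 to 3 at P60, 122 (without P60-WT replicate 3) to 2403 with age in WT, 2093 to 3230 in KO, 0 to 1 for the interaction, and over both genotypes 0 to 1 FA genes and 1 to 3 partners. Differences that changed sign ran, at P25, from -0.31 to 0.53 for Fanca, -0.12 to 0.12 for Fancb, -0.068 to 0.00026 for Fance, -0.18 to 0.045 for Fancg and -0.15 to 0.11 for Fanci; at P60, from -0.12 to 0.23 for Fancd2, -0.20 to 0.25 for Fanci, -0.19 to 0.13 for Fancl and -0.074 to 0.41 for Fancm; with age, from -0.24 to 0.20 for Fanca, -0.038 to 0.043 for Fancc, -0.068 to 0.13 for Fanci and -0.041 to 0.12 for Fancl; with age in KO, from -0.31 to 0.17 for Fancm.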
